A study of Mus musculus with 45 samples.

Results

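Nr4a1, Nr4a2 and Nr4a3 encode the 3 orphan nuclear receptors known as Nur77, Nurr1 and Nor1, and their mRNAs were followed in the nucleus accumbens of mice after chronic intermittent ethanol. All probesets whose platform annotation names 1 of these symbols alone were taken, which gave 10 probesets of 34945 that carry a single symbol (45037 in all): 1 for Nr4a1, 6 for Nr4a2 and 3 for Nr4a3. CIE mice, adult C57BL/6J males, were injected before each of 4 cycles with 1.6 g/kg ethanol together with 1 mmol/kg of pyrazole, which blocks alcohol dehydrogenase, and were then kept in ethanol vapor (10 to 13 mg/l) for 16 h per day on 4 days, with 7 days of abstinence separating the cycles. Ctrl mice of the same strain, sex and age class had saline in place of ethanol, the same pyrazole, and air in the chambers, so that every group carries pyrazole, injection and chamber handling. Tissue came from mice killed when the last session ended (0 h) or 8 h, 72 h or 7 d later. The 45 arrays, 1 per mouse, comprised 6 CIE and 6 Ctrl arrays at 0 h, 5 and 5 at 8 h, 5 and 6 at 72 h, and 6 and 6 at 7 d.

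NR4A receptors bind DNA without a known classical ligand, mostly as monomers at an element called the NBRE. Their activity is held to depend in part on the amount of protein made, and neither was measured here. Their genes are immediate early genes: in neurons, calcium and cyclic AMP signals switch them on within minutes, largely through CREB and related factors at cyclic AMP response elements (CREs) in the promoter. In the striatum Nr4a1 is made by medium spiny neurons and responds to dopamine receptor drugs, Nr4a2 is best known for the development and upkeep of midbrain dopamine neurons and is also strong in the claustrum and deep cortex, and Nr4a3 is likewise induced by neuronal activity.

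The promoters are shown first because 2 of the 3 genes moved together at 0 h and all 3 are known CREB targets. Each sequence is the 250 bases before the RefSeq start, written 5′ to 3′ on the gene's strand (GRCm38.p6), with every CRE core in capitals. A CRE core is TGACG or, on the other strand, CGTCA.
Nr4a1, chr15:101266596-101266845, plus strand: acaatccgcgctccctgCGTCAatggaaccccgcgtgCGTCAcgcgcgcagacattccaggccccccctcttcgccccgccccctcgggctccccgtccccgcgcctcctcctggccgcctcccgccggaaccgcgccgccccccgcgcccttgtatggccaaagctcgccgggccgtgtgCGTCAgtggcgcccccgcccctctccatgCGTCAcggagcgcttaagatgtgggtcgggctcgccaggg
Nr4a2, chr2:57124004-57124253, minus strand: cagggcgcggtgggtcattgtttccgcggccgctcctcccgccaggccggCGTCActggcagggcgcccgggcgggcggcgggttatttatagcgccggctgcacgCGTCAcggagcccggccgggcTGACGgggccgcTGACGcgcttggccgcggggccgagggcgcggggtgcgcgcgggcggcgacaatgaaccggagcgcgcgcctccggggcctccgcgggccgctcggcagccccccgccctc
Nr4a3, chr4:48045055-48045304, plus strand: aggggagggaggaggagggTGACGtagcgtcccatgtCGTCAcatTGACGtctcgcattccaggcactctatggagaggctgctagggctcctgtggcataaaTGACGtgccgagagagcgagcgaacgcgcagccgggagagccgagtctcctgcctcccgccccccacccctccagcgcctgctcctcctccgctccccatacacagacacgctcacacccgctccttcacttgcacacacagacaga
The starts used for Nr4a1 and Nr4a3 lie inside the listed spans of these genes (chr15:101253902-101274795 and chr4:48045078-48086447), while that of Nr4a2 is the end of its span (chr2:57106830-57124003). Each of the 3 windows held 4 CRE cores. In Nr4a1 they began 233, 213, 69 and 40 bases before the start, in Nr4a2 200, 144, 123 and 111, and in Nr4a3 231, 213, 205 and 147. Of all 32851 RefSeq promoters, cut to the same 250 bases and searched on both strands, 17.8% held at least 1 CRE core and 45, or 0.137%, held 4 or more. The 3 windows are rich in G and C (74.4%, 80.0% and 63.6%, against a median of 52.4%), and among the 3037 promoters of at least 70% G and C the share with 4 or more was 0.296%. The full CRE, TGACGTCA, which contains a CRE core on each strand, was in none of the 3 windows and in 1.55% of promoters. The NBRE, AAAGGTCA, was likewise in none and in 1.34%, and the CArG box in none and in 1.47%. A MEF2 site was found once, in Nr4a2 at 167 bases before the start, and in 2.92% of promoters. These are matches of letters and were not tested as binding sites.

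The values are deposited log2 expression values, so that 1 unit is a doubling. A change below is CIE minus Ctrl from a limma fit over all probesets, with p-values adjusted by Benjamini-Hochberg over the 45037 probesets of a comparison and a threshold of 0.01. Array medians lay between 6.94 and 6.96. Of 20 listed markers of medium spiny neurons, the main cells of the labelled tissue, 18 were measured, and their mean levels stood at a median percentile of 97.8 among all probesets, with Drd1 at 12.55 and Ppp1r1b at 12.13. Markers of midbrain dopamine neurons stood at a median percentile of 35.3, with mean levels from 3.29 (En1) to 12.78. Cortical pyramidal neuron markers were at a median percentile of 73.8. In such bulk tissue, fewer cells of a type and less RNA per cell cannot be told apart. The labels give no batch, and 6 hybridization sets of 6 to 8 arrays, each with at most 1 array of a group, were inferred from shared values. Ctrl 0 h replicate 20 belonged to none.

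At 0 h, 2 of the 10 Nr4a probesets passed, both lower in CIE: that of Nr4a1 (0.516-fold) and the brightest of Nr4a3 (0.685-fold). Of all probesets 1.59% passed at this time and 0.619% passed as lower in CIE. In both of these probesets every CIE array lay below every Ctrl array, as it did in 0.577% of all probesets. No Nr4a probeset passed at 8 h, 72 h or 7 d, when the shares of all probesets that passed were 0.0622%, 0% and 0%. None of the 10 had an unadjusted p under 0.05 at those times either, while 3342 probesets did at 8 h, 3242 at 72 h and 1056 at 7 d. No other tool was run.

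Nr4a1 (Nur77) at 0 h measured 9.82 in the lowest, 10.39 in the median and 10.92 in the highest of 6 CIE mice, against 10.97, 11.36 and 11.59 in 6 Ctrl mice. The groups did not overlap, and the closest pair were CIE replicate 17 and Ctrl replicate 20, the array outside the inferred sets. The means were 10.38 ± 0.39 in CIE and 11.34 ± 0.20 in Ctrl (SD, n = 6 each), a change of -0.95 (SE 0.14, 95% interval -1.24 to -0.67), or 0.516-fold, with an adjusted p of 3.87e-05. Within the 5 sets that hold both groups the change was negative each time, between -1.60 and -0.41. It passed with each of the 12 arrays left out in turn, but with only the arrays of 0 h in the fit the adjusted p was 0.0198.

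Nr4a1 did not pass at the later times. At 8 h the 5 CIE arrays read 11.05, 10.39, 11.005, 10.82 and 11.03, against 10.74, 10.75, 10.67, 11.08 and 11.24 in Ctrl, and the groups overlapped with a change of -0.04 (95% interval -0.35 to 0.28, adjusted p = 0.993). At 72 h the CIE arrays read 10.59, 10.50, 10.51, 10.79 and 10.63, against a lowest of 10.21, a median of 10.50 and a highest of 10.90 in Ctrl. All 5 CIE arrays fell inside the Ctrl range there, with a change of 0.11 (-0.19 to 0.41, adjusted p = 0.891). At 7 d the lowest, median and highest were 10.11, 10.40 and 10.95 in CIE, against 10.34, 10.54 and 10.65 in Ctrl, a change of -0.08 (-0.37 to 0.20, adjusted p = 1). The CIE range enclosed the Ctrl range at that time.

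The change of Nr4a1 itself differed between times. Tested as an interaction, the change at 72 h exceeded that at 0 h by 1.06 (95% interval 0.65 to 1.48, adjusted p = 0.00857). The same difference was 0.92 at 8 h (adjusted p = 0.108) and 0.87 at 7 d (adjusted p = 0.0213), which did not pass. The shares of all probesets that passed these interaction tests were 0% at 8 h, 0.0755% at 72 h and 0.2% at 7 d. In the F test over the 4 times, which 0.901% of probesets passed, the adjusted p was 0.000833 for Nr4a1. With the hybridization sets as a block the difference at 72 h was 1.14 with an adjusted p of 0.0131.

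**Figure D1:**
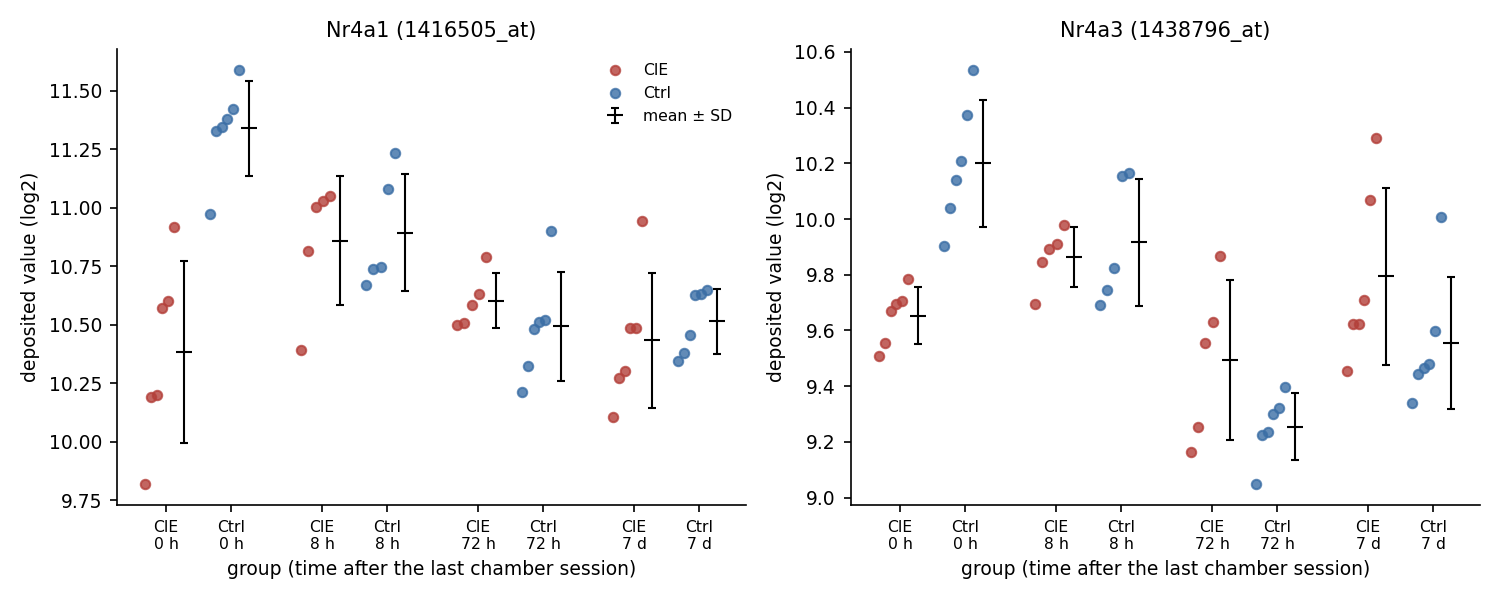
Deposited log2 values of Nr4a1 (left) and of Nr4a3 at its brightest probeset (right) in all 45 arrays, by group, with CIE in red and Ctrl in blue at each time after the last chamber session. Points are arrays and black bars are mean ± SD (n = 5 or 6). At 0 h all CIE points lie below all Ctrl points in both panels, and Ctrl 0 h has the highest mean of the 8 groups.

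Nr4a3 (Nor1) has 3 probesets, of which 1438796_at is the brightest. At 0 h it read 9.51 in the lowest, 9.68 in the median and 9.79 in the highest CIE array, against 9.90, 10.17 and 10.53 in Ctrl. The groups did not overlap, and the CIE arrays lay close together. The means were 9.65 ± 0.10 in CIE and 10.20 ± 0.23 in Ctrl (SD, n = 6 each), a change of -0.55 (SE 0.12, 95% interval -0.79 to -0.30), or 0.685-fold, with an adjusted p of 0.00502. All 5 sets gave a negative change, between -0.83 and -0.39. This call was less firm than that of Nr4a1. The adjusted p was 0.0161 with the sets as a block, 0.0485 with array weights and 0.0255 with the 0 h arrays alone. It was also lost without Ctrl replicate 30 (adjusted p = 0.0128), 48 (0.0206) or 78 (0.0153), and without CIE replicate 5 (0.0181), 26 (0.0101) or 43 (0.0116), with changes between -0.56 and -0.48 in these 6 fits.

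At 8 h the same probeset read 9.69, 9.91, 9.98, 9.85 and 9.89 in CIE, against 9.75, 9.69, 9.82, 10.17 and 10.15 in Ctrl, with overlap and a change of -0.05 (95% interval -0.32 to 0.22, adjusted p = 0.985). At 72 h the CIE arrays read 9.63, 9.56, 9.26, 9.87 and 9.16, against 9.05, 9.27 and 9.40 as lowest, median and highest in Ctrl. Of the CIE arrays 3 stood above the highest Ctrl array, and the change was 0.24 (-0.02 to 0.50, adjusted p = 0.701). At 7 d the lowest, median and highest were 9.46, 9.67 and 10.29 in CIE, against 9.34, 9.47 and 10.01 in Ctrl, a change of 0.24 (-0.01 to 0.49, adjusted p = 1) with overlap. The differences of these changes from the change at 0 h were 0.49 at 8 h (adjusted p = 0.689), 0.79 at 72 h (0.0336) and 0.79 at 7 d (0.0161), none of which passed, and the F test over the 4 times gave an adjusted p of 0.0185.

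The other Nr4a3 probesets did not follow 1438796_at. The values of 1421080_at ran between 6.45 and 7.07 over all arrays, with changes between -0.06 and 0.05 over the 4 times. The dim 1421079_at ran between 3.64 and 4.29, with changes between -0.10 and 0.08. Over the 45 arrays their correlations with 1438796_at were 0.23 and -0.13, and with each other -0.08. Both share 1 source sequence in the platform annotation, and 1438796_at has another, so that the call for Nr4a3 rests on 1 probeset.

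Nr4a2 (Nurr1) showed no change that passed at any time, and its values differed far more between mice than between groups. At its brightest probeset, 1455034_at, the 45 arrays ran from 5.82 to 10.83, a 32.1-fold range. Its spread between arrays of a group (residual SD 1.36) was the 3rd largest of 18193 genes, each at its brightest probeset, and 10.7 times the median gene's. The residual SDs of Nr4a1 (0.25) and Nr4a3 (0.22) were 1.99 and 1.72 times the median.

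At 0 h 1455034_at read 5.82 in the lowest, 9.48 in the median and 10.38 in the highest CIE array, against 6.53, 8.93 and 10.05 in Ctrl, a change of 0.23 (95% interval -1.29 to 1.74, adjusted p = 0.932). At 8 h it read 7.67, 9.88, 8.89, 9.64 and 7.25 in CIE, against 6.42, 9.59, 7.62, 9.02 and 10.83 in Ctrl, a change of -0.03 (-1.69 to 1.63, adjusted p = 0.999). In both cases low and high arrays stood side by side in CIE and in Ctrl. At 72 h it read 9.13, 8.85, 8.76, 9.36 and 7.31 in CIE, against a lowest of 6.72, a median of 7.96 and a highest of 9.44 in Ctrl, a change of 0.67 (-0.92 to 2.26, adjusted p = 0.872). At 7 d the lowest, median and highest were 6.66, 9.86 and 10.39 in CIE, against 6.19, 9.34 and 9.98 in Ctrl, a change of 0.28 (-1.23 to 1.80, adjusted p = 1). With the mean of cortical pyramidal neuron markers in the fit as a covariate, added after seeing the data, these changes turned to -0.53 at 0 h, -0.64 at 72 h and -0.013 at 7 d, none of which passed. With intervals this wide, a change of the size seen in Nr4a1 was not detectable at this probeset. At 0 h other Nr4a2 probesets had narrower intervals, among them 1450749_a_at (-0.34 to 0.50) and 1433422_at (-0.06 to 0.18). Over all arrays the values of these ran over only 2.62-fold and 1.39-fold ranges.

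The 12 arrays below 8 at this probeset came from all 8 groups, 5 of them of 22 CIE arrays and 7 of 23 Ctrl arrays, and the next array stood at 8.49. Within the 5 sets that hold both groups at 0 h, CIE minus Ctrl was negative in 3 and positive in 2, from -3.19 to 3.63. A further 3 probesets, 1447863_s_at, 1450749_a_at and 1450750_a_at, followed 1455034_at, with correlations of 0.98, 0.84 and 0.99 over the 45 arrays and changes between -0.17 and 0.55. Their ranges over all arrays were 29.2-fold, 2.62-fold and 17.5-fold. The remaining pair, 1433422_at and 1433423_at, come from 1 other source sequence in the annotation, correlated with 1455034_at at -0.12 and 0.34 only, ran over 1.39-fold and 1.62-fold ranges, and changed by between -0.11 and 0.15. Probesets of 1 gene share its transcripts and are not replicates.

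**Figure D2:**
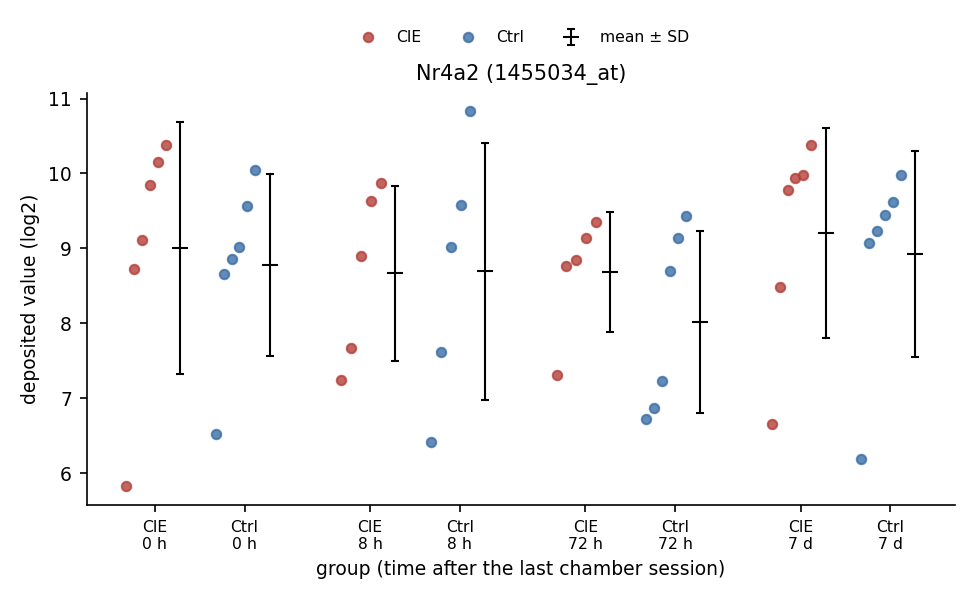
Deposited log2 values of Nr4a2 at 1455034_at in all 45 arrays, by group, with CIE in red and Ctrl in blue at each time after the last chamber session. Points are arrays and black bars are mean ± SD (n = 5 or 6). Values between 5.82 and 10.83 occur, and low and high arrays appear in both treatments.

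**Figure D3:**
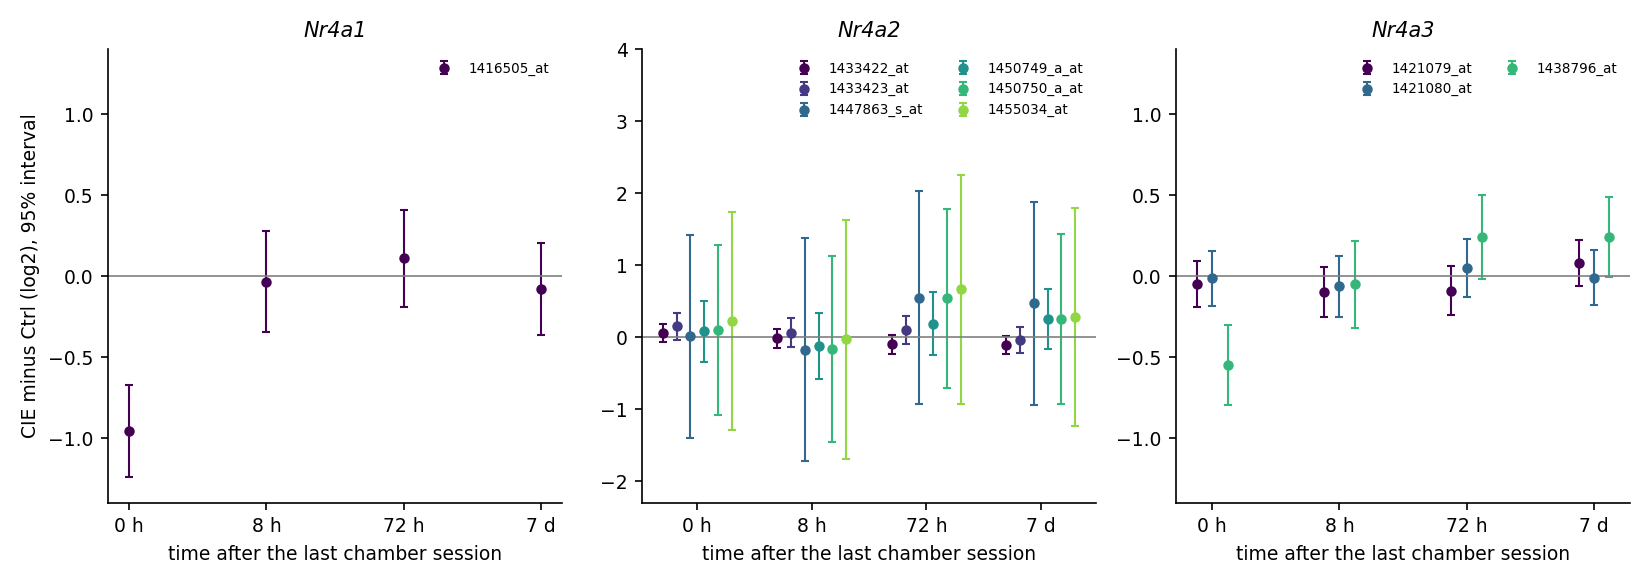
Change of every Nr4a probeset, CIE minus Ctrl on the log2 scale with the 95% interval of the limma fit, at the 4 times after the last chamber session. The middle panel has its own vertical scale. Intervals at 0 h lie wholly below 0 for Nr4a1 and for Nr4a3 1438796_at, while those of Nr4a2 1455034_at span about 3 units at each time.

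The large spread of Nr4a2 moved with markers of cortical neurons. For each array, the mean over 17 measured cortical pyramidal neuron markers was taken, each marker centred on its own mean, and likewise for claustrum and deep layer markers (13) and medium spiny neuron markers (18). Across the 45 mice, Nr4a2 1455034_at correlated with the cortical mean at a Pearson r of 0.92 and a Spearman rho of 0.919, with the claustrum and deep layer mean at 0.917 and 0.933, and with the medium spiny mean at -0.692 and -0.765. In a 2-sided permutation test with 100000 resamples each p was 1e-05, the smallest they can give, and it remained 1e-05 after adjustment over these 3 relations. The marker lists were chosen with earlier results of these data known, and arrays were shuffled without regard to group or set. These p-values therefore give no independent support, and the r values are a description. Without the 2 arrays farthest from the median of the marker mean, r was 0.92, 0.903 and -0.68. Within the 6 sets r ran from 0.882 to 0.949, from 0.804 to 0.984 and from -0.793 to -0.532. Within the 12 arrays below 8 and the 33 above it, r with the cortical mean was 0.774 and 0.792, whereas r with the medium spiny mean was -0.0258 and -0.702. These arrays were divided on Nr4a2 itself, after its values were seen, which narrows its range, and the difference between the r values was not tested. Single markers were less uniform than the means. Of the 17 cortical markers 11 had an r above 0.5 with Nr4a2, with a median of 0.77 and a lowest of -0.46. Of the 13 claustrum and deep layer markers 6 did, with a median of 0.43 and a lowest of -0.56, and of the 18 medium spiny markers 14 had an r below -0.5, with a median of -0.63. The part of tissue composition in the Nr4a2 values was not tested.

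**Figure D4:**
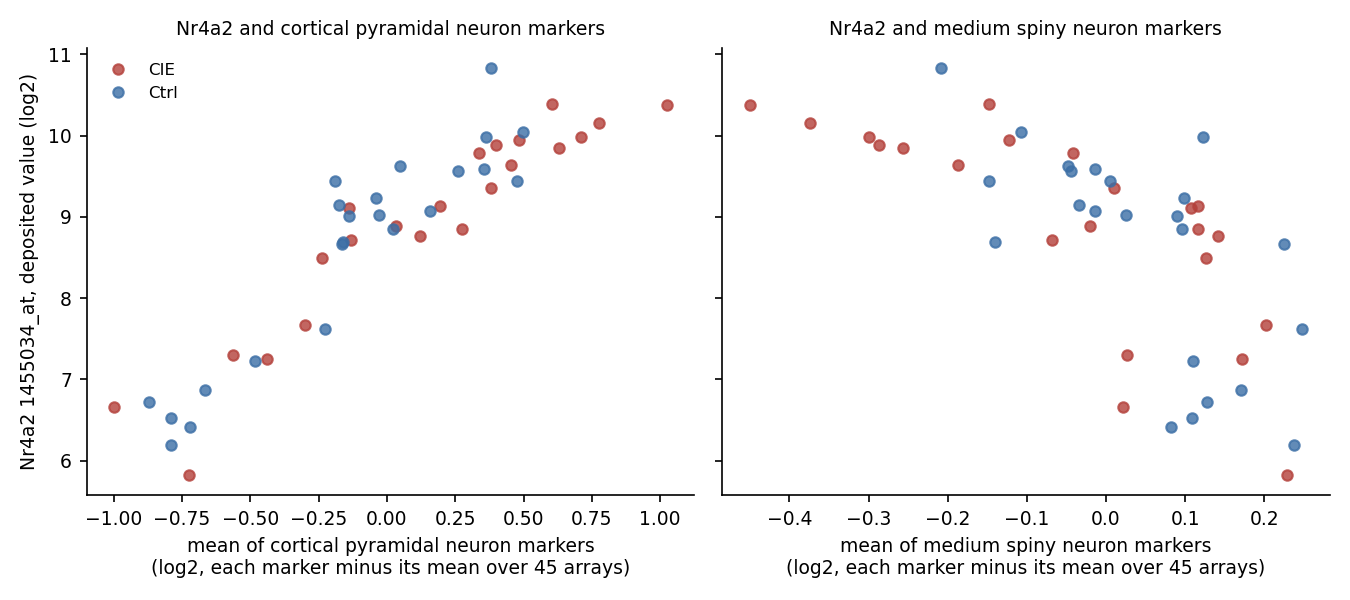
Nr4a2 1455034_at (vertical axis, deposited log2 value) against the mean of cortical pyramidal neuron markers (left) and of medium spiny neuron markers (right) in the 45 arrays, CIE in red and Ctrl in blue. Horizontal axes are log2 units around each marker's mean. Points climb with the cortical mean (r = 0.92) and descend with the medium spiny mean (r = -0.692) in both treatments.

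The genes whose values were most like those of Nr4a2 were, by Pearson r over the 45 arrays, Tbr1 (0.95) and Neurod6 (0.94), transcription factors of cortical glutamatergic neurons, Vxn (0.94), the neuropeptide gene Cck (0.94) and Tmem178 (0.93). With group means removed they were Tbr1, Neurod6, Tmem178, the pentraxin gene Nptx1 and Cck, with r between 0.94 and 0.96. None of these 6 passed at 0 h. The arrays share the tissue dissection that made them, so these values describe likeness and no more.

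Nr4a1 and Nr4a3 lay with other genes. Most like Nr4a1 were Arc (0.90), whose protein acts in synaptic receptor trafficking, the transcription factor genes Egr1 (0.87), Fos (0.84) and Egr2 (0.82), and the phosphatase gene Dusp1 (0.79). The same 5 led with group means removed, at 0.65 to 0.84. Most like Nr4a3 were Fosl2 (0.87), an AP-1 family member, then Fos (0.67), Rasa2 (0.66), Nr4a1 (0.66) and Egr1 (0.62). With group means removed Fosl2 (0.77) remained at the head, followed by Ube2f (0.65), Zfp655 (0.59), Sap30 (0.57) and Ahsa2 (0.56), and the correlation of Nr4a1 with Nr4a3 was 0.43. Nr4a2 1455034_at correlated with Nr4a1 at -0.10 and with Nr4a3 at 0.24.

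The size of the change at 0 h was compared within arrays between the 3 genes, each at its brightest probeset, by an exact 2-sided permutation test over the 924 ways to split 12 arrays, with a smallest possible p of 0.00216. The change of Nr4a1 was lower than that of Nr4a3 by 0.41 (exact p = 0.0498, adjusted over the 3 pairs 0.149). It differed from that of Nr4a2 by -1.18 (exact p = 0.219, adjusted 0.328), and that of Nr4a3 from that of Nr4a2 by -0.77 (exact p = 0.377, adjusted 0.377). No pair passed. Both Nr4a2 pairs used 1455034_at, whose residual SD was 1.36, and at that spread they could not decide whether Nr4a2 responded differently. Its other probesets were not compared in this way.

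Over time, the mean level of Nr4a1 was highest in Ctrl 0 h (11.34), followed by Ctrl 8 h (10.89), CIE 8 h (10.86), CIE 72 h (10.60), Ctrl 7 d (10.51), Ctrl 72 h (10.49), CIE 7 d (10.43) and CIE 0 h (10.38). Only the step between the first pair, 0.45, exceeded the larger SD of the groups beside it, and that step did not pass. For Nr4a3 1438796_at the order was Ctrl 0 h (10.20), Ctrl 8 h (9.92), CIE 8 h (9.86), CIE 7 d (9.79), CIE 0 h (9.65), Ctrl 7 d (9.56), CIE 72 h (9.49) and Ctrl 72 h (9.25), again with only the first step, 0.28, above the larger SD. For Nr4a2 1455034_at the means ran from 9.21 in CIE 7 d to 8.02 in Ctrl 72 h, and all neighbours lay within their SD, the widest step being 0.65 between CIE 8 h and Ctrl 72 h.

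Within Ctrl, the mean levels of Nr4a1 and of the brightest Nr4a3 probeset were higher at 0 h than later. Nr4a1 changed by -0.85 at 72 h against 0 h (SE 0.14, adjusted p = 0.00207). At 7 d against 0 h its change was -0.82 (SE 0.14, adjusted p = 0.00162). The brightest probeset of Nr4a3 changed by -0.95 at 72 h (SE 0.12, adjusted p = 2.46e-05). At 7 d it changed by -0.64 (SE 0.12, adjusted p = 0.00677). Of all probesets 0.0488% passed between Ctrl 72 h and Ctrl 0 h and 0.0799% between Ctrl 7 d and Ctrl 0 h, 0.04% and 0.0577% as lower at the later time. At 8 h no probeset passed against Ctrl 0 h (0%; 2264 had an unadjusted p under 0.05). There Nr4a1 changed by -0.45 (unadjusted p = 0.00448, adjusted p = 0.944) and Nr4a3 by -0.28 (unadjusted p = 0.0323, adjusted p = 0.945).

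The 72 h call of Nr4a1 was lost without Ctrl 0 h replicate 78 (adjusted p = 0.0118) or Ctrl 72 h replicate 68 (0.011). The 7 d call of Nr4a3 was lost in 9 of 12 such fits, without Ctrl 0 h replicate 30, 38, 48 or 78 or Ctrl 7 d replicate 28, 36, 54, 62 or 77, at adjusted p up to 0.0428, and with the sets as a block (0.0304). No Nr4a2 probeset and neither of the other Nr4a3 probesets passed in this course. Markers of other cells differed as well between these arrays. All 13 oligodendrocyte markers had changes above 0 at 72 h, with a median of 0.45, none passed in the limma fit and 9 had an unadjusted p under 0.05, and the log2 of their summed level ran from 16.1 to 16.7 in Ctrl 72 h and from 15.8 to 16.3 in Ctrl 0 h. Of 13 astrocyte markers none passed at 72 h and 8 had an unadjusted p under 0.05, with a median of 0.04 and log2 sums of 15.4 to 15.5 in Ctrl 72 h and in Ctrl 0 h. Among 17 cortical pyramidal markers 15 had changes below 0 at 72 h, against 10150 of all 18193 genes, and none passed. Their median was -0.21. At 7 d all 13 oligodendrocyte markers were again above 0, with a median of 0.20, none passed and 1 had an unadjusted p under 0.05. At that time 1 of the 13 astrocyte markers passed as lower, as did 15 of all genes. An unadjusted p under 0.05 was found for 5 of these 13, against 1108 of all genes. The part of these cells in the Ctrl changes of Nr4a1 and Nr4a3 was not tested.

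Within CIE no Nr4a probeset passed against 0 h at any later time, although 0.633% of all probesets did at 8 h, 1.62% at 72 h and 1.5% at 7 d. Nr4a1 at 8 h differed from 0 h by 0.47 (95% interval 0.18 to 0.77, unadjusted p = 0.00263, adjusted p = 0.0946), with 3 of the 5 arrays at 8 h above the highest at 0 h. At 72 h and 7 d it differed from CIE 0 h by 0.22 and 0.05. Nr4a3 differed by 0.21, -0.16 and 0.14 at the 3 later times. All these comparisons and the 0 h comparison between treatments share the 0 h arrays of 1 treatment, so that their values stand side by side and are not independent.

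An added comparison, chosen after seeing the data, set CIE 0 h against the mean of Ctrl 72 h and Ctrl 7 d. Nr4a1 averaged 10.38 in CIE 0 h and 10.50 in these later Ctrl arrays, a change of -0.12 (95% interval -0.37 to 0.13, adjusted p = 0.654). Nr4a3 averaged 9.65 in CIE 0 h and 9.41 in the later Ctrl arrays, a change of 0.25 (0.03 to 0.46, adjusted p = 0.157).

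Among lists of genes around the family, changes at 0 h lay mainly in immediate early genes. Each gene was taken at its brightest probeset, and of all 18193 genes 1.28% passed as higher and 0.654% as lower at 0 h, with a median change of 0.02. Of 39 other immediate early genes 5 were lower and 2 higher, with a median of -0.16 and 26 changes below 0. The lower ones were Arc (-1.16, adjusted p = 6.22e-05), Fos (-1.06, 0.00164), Npas4 (-1.03, 0.00276), Egr1 (-0.51, 1.13e-05) and Rgs2 (-0.39, 0.00431), a regulator of G protein signaling. Jun (0.65, 0.00145) and Maff (0.56, 0.00563) were higher. Rgs2 and Maff were named after their values were seen. These lists were chosen with earlier results of these arrays known.

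Of 22 genes induced by cyclic AMP and CREB, Fos and Rgs2 were lower, and both are among the immediate early genes counted above. Ppargc1a, a coactivator of mitochondrial genes, was higher (0.39, adjusted p = 0.00427), and the median of the list was -0.13. The lists share members, so their counts are not independent. Among 17 factors that induce Nr4a genes only Elk1, a partner of serum response factor, passed (0.64, adjusted p = 0.000975), while Creb1 changed by -0.11 (adjusted p = 0.53). None of 19 upstream kinases and phosphatases, 19 reported NR4A target genes and 9 NR4A partners and corepressors passed in the limma fit, and 3, 7 and 4 of them had an unadjusted p under 0.05, as had 3353 of all 18193 genes. Their medians were -0.03, 0.09 and -0.08. Of 41 other nuclear receptors only Nr2e1 passed, the receptor Tlx of neural stem cells, with -0.66 (adjusted p = 0.000395) at 0 h and -0.81 (adjusted p = 0.00058) at 8 h.

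At 8 h, when 0.044% of genes were higher and 0.0385% lower, Nr2e1 was the only gene of these 7 lists to pass, and at 72 h and 7 d no gene of them did, as no probeset of the array passed. In the Ctrl course 2 of the 39 immediate early genes passed at 72 h, Fos (-1.12, adjusted p = 0.00873) and Fosl2 (-0.66, adjusted p = 0.00604). At 7 d 2 of the 39 passed, Fos (-1.21, adjusted p = 0.00202) and Arc (-0.92, adjusted p = 0.00884). All 4 values were lower than at Ctrl 0 h. Of all 18193 genes, 3 passed as higher and 12 as lower at 72 h, and 7 and 15 at 7 d.

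Markers of other cell types were read at 0 h beside these changes. Of 18 medium spiny neuron markers 17 had changes below 0, against 7841 of all 18193 genes. The median change of these markers was -0.19, none passed, and 8 had an unadjusted p under 0.05, against 3353 of all genes. The log2 of their summed level ran from 16.1 to 16.7 in CIE arrays and from 16.5 to 16.7 in Ctrl arrays. Of 13 microglia markers 12 were below 0 and Fcrls and P2ry12 passed as lower, with log2 sums of 13.4 to 13.7 in CIE and 13.5 to 14.0 in Ctrl. A single passing marker was found among claustrum and deep layer markers (Lxn, lower) and among astrocyte markers (Gjb6, higher), a pair among endothelial markers (Slc2a1 higher, Vtn lower), and none among oligodendrocyte or midbrain dopamine markers. Of 13 oligodendrocyte markers 12 had changes below 0, with a median of -0.12 and log2 sums of 15.6 to 16.4 in CIE and 15.8 to 16.3 in Ctrl. Of 17 cortical pyramidal markers none passed, and their array mean ran from -0.72 to 1.02 in CIE and from -0.79 to 0.50 in Ctrl. With that mean as a covariate, added after seeing the data, the change at 0 h was -0.91 for Nr4a1 (adjusted p = 4.9e-05) and -0.57 for Nr4a3 (adjusted p = 0.00389). Correlations of single medium spiny markers with Nr4a1 over the 45 arrays had a median of 0.27, and those of microglia markers 0.13. The part of these cell types in the changes of Nr4a1 and Nr4a3 was not tested.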

How the data were processed

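Nucleus accumbens RNA of 45 individual mice was measured, each on its own Affymetrix array. What was deposited is a log2 value for each probeset. The authors background corrected and quantile normalized each hybridization batch with RMA, quantile normalized all arrays together and applied ComBat. No RMA version is stated in the sources used here. Depth does not apply to arrays, and the number of arrays limits the precision. The design had 6 mice per group, and 3 groups hold 5 arrays here.

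Probesets were named from the platform annotation, with 34741 of 34945 single symbols found in RefSeq (GRCm38.p6). No values were filtered. In limma 3.58.1 (R 4.3.3) 8 group means were estimated for each of 45037 probesets, without covariates, and p-values were adjusted by Benjamini-Hochberg within each contrast at a threshold of 0.01. The procedure was tested on simulated data. For the limma fit these were independent normal values, without hybridization sets or correlation between probesets, so the effect of either was not covered. Arrays with at least 5 equal values (tolerance 2e-08) formed hybridization sets, which may differ from the authors' batches. Settings tried were the sets as a fixed or random block, renormalization, centring, array weights, robust fits, filters on probesets, other adjustments and leaving out each array.

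The members and the 15 gene lists (276 genes, 254 measured) were chosen with earlier results of these data known. All member probesets are named, with up to 4 passing genes per list with the largest change and the 5 genes most like each member. Beyond this rule, every immediate early gene that passed at 0 h is named. Proteins were not analysed here, for want of a sequence table. Replicate numbers are the biological replicate numbers of the sample titles. The paper states that mice were housed singly, and litters are not given. Nothing ties mice to litters, so each mouse was treated as independent. The tests set differences of group means against the spread between mice of a group. They make no allowance for the earlier ComBat step.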

Additional observations from a re-analysis of the deposited data

Results flagged for a closer look

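Within 80 combinations of probeset and group, 11 values, from 8 arrays, stood apart from the others of their group by Dixon's criterion, where chance alone gives about 1 in 20. Nr4a2 1455034_at, 1447863_s_at and 1450750_a_at follow each other closely, so that their repeats of 1 array are not independent. At Nr4a2 1455034_at they were CIE 0 h replicate 43 at 5.82, CIE 72 h replicate 63 at 7.31 and Ctrl 7 d replicate 77 at 6.19, all low. CIE 0 h replicate 43 (5.65) and Ctrl 7 d replicate 77 (5.87) were also apart at Nr4a2 1447863_s_at, and Ctrl 7 d replicate 77 (5.61) at Nr4a2 1450750_a_at. In these arrays the mean of cortical pyramidal markers was also low, at -0.72, -0.56 and -0.79 for replicates 43, 63 and 77. At the flat Nr4a2 1433422_at, CIE 0 h replicate 17 was low at 6.58 and CIE 72 h replicate 29 high at 6.92, and at Nr4a2 1433423_at Ctrl 7 d replicate 36 was high at 5.67. At the dim Nr4a3 1421079_at, CIE 72 h replicate 3 (4.08) and Ctrl 8 h replicate 42 (4.05) were high. No array of Nr4a1 or of Nr4a3 1438796_at stood apart in this sense.

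The change of Nr4a1 between CIE and Ctrl differed between times: its value at 72 h exceeded that at 0 h by 1.06 (adjusted p = 0.00857 in limma's interaction test).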

How the results depend on the processing

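No paired analysis was possible because no replicate number occurs in more than 1 group. Only the inferred hybridization sets link the groups, and they hold at most 1 array of a group. With these sets as a block, the 0 h change of Nr4a3 1438796_at was -0.58 (adjusted p = 0.0161) and its Ctrl change at 7 d -0.68 (0.0304), which left 1 Nr4a probeset passing in each comparison, and the Nr4a1 change at 72 h less that at 0 h was 1.14 (0.0131). At 0 h, array weights gave -0.53 for Nr4a3 (0.0485; 1 probeset passing), and adjustment over the 4 times together -0.55 (0.0176; 1 passing). With the arrays of 0 h alone, Nr4a1 was at -0.95 (0.0198) and Nr4a3 at -0.55 (0.0255), and 0 of the Nr4a probesets passed in limma. Of all probesets, 717 passed at 0 h, against 299 with the block and 309 with array weights. The number of all probesets that passed was not counted for adjustment over the 4 times together or for the 0 h arrays alone. The sets as a random block, renormalization, robust fits and the filters were run on CIE minus Ctrl at the 4 times only. They changed no call of the 3 brightest probesets there. Centring was run on all comparisons and changed no call. The arrays had already been quantile normalized together, with medians from 6.94 to 6.96, so renormalization and centring could change little. The cause of the differences between settings was not tested.

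With the cortical marker mean as a covariate, added after seeing the data, Nr4a2 1455034_at turned to -0.53 at 0 h, -0.64 at 72 h and -0.013 at 7 d for CIE minus Ctrl. Against 0 h it turned to 0.20 for CIE 8 h, 0.085 for CIE 72 h, 0.20 for Ctrl 72 h and -0.082 for Ctrl 7 d.

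With each array left out in turn, the number of passing Nr4a probesets ran from 1 to 2 at 0 h, from 1 to 2 for Ctrl 72 h and from 1 to 2 for Ctrl 7 d. Nr4a3 ran from -0.61 to -0.48 at 0 h (6 of 12 fits passed), from -0.73 to -0.58 for Ctrl 7 d (3 of 12) and from -0.11 to 0.010 at 8 h. Nr4a1 ran from -0.93 to -0.79 for Ctrl 72 h (10 of 12), from -0.092 to 0.081 at 8 h and from -0.063 to 0.16 for CIE 7 d against CIE 0 h. Nr4a2 1455034_at ran from -0.22 to 0.86 at 0 h, from -0.60 to 0.50 at 8 h and from -0.26 to 0.79 at 7 d. Against 0 h it ran from -0.98 to 0.015 for CIE 8 h, -0.96 to 0.021 for CIE 72 h, -0.43 to 0.71 for CIE 7 d, -0.62 to 0.49 for Ctrl 8 h and -0.31 to 0.69 for Ctrl 7 d. The interactions and F tests were not run with arrays left out. The other 7 probesets gave 149 of 1272 values with the other sign, and 0 passed.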
